A study of Homo sapiens with 4 samples.

Results

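Collagens, laminins and integrins are the structural proteins of the extracellular matrix and the receptors by which cells hold on to it. Every probe set listed for a single gene, with a symbol of the form COL-A, LAMA, LAMB, LAMC, ITGA or ITGB followed by its chain name, was taken as a member. This gave 143 of 22277 probe sets, which read 66 of the 11963 genes named on the array: 32 collagen chains on 73 probe sets, 10 laminin chains on 20 and 24 integrin genes on 50. ITGBL1 matched the pattern although it encodes an integrin-like secreted protein and no integrin subunit. The laminin chain LAMA3 is not analysed here, and ITGB6 lies on probe sets listed with several genes and was left out.

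RNA was measured in MDA-MB231, a human breast cancer cell line that grows with a mesenchymal shape and lacks the estrogen receptor. Stable lines carried a scrambled control shRNA or PIAS1 shRNA2, which targets the SUMO ligase PIAS1, each from a U6 promoter in a lentiviral vector with puromycin resistance. Each line was kept for 30 h in DMEM with 10% FBS (called DMEM) or in SCM, a serum-free medium with EGF, basic FGF, insulin and bovine serum albumin that the study describes as favoring normal stem cells. With 1 Affymetrix array for each of these 4 conditions, the ratios below have no replicate error, and no p-value is given. The knockdown is 1 line against 1 line, and its effect and any other difference between these lines cannot be told apart. SCM differs from DMEM in serum, growth factors and base medium together, and their parts cannot be told apart either. In its SCM growth assays the study used non-treated plates, and its array methods do not name the culture surface. It also reports that PIAS1 knockdown reduced survival in SCM but did not affect growth in DMEM. Any part of surface or survival cannot be told apart from that of the medium.

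Collagens assemble from 3 alpha chains into a triple helix and form fibrils, basement membrane networks, beaded filaments or anchoring fibrils according to type. Laminins are cross-shaped trimers of an alpha, a beta and a gamma chain and are the main adhesive proteins of basement membranes. Integrins are pairs of an alpha and a beta subunit that bind these proteins outside the cell and the actin or keratin cytoskeleton inside it. In breast epithelium they hold cells to the basement membrane, and they are widely studied in tumor cell invasion.

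Values are array intensities on a linear scale, here called signals, and are comparable between arrays for the same probe set but not between genes. Median signals lay between 569 and 605, and 61.7% to 65.0% of probe sets reached the background floor of 220. This floor was set from genes of other tissues, and lower signals were raised to it before ratios were formed. A ratio whose dimmer signal lay under the floor is a lower bound, and none is given where both did. PIAS1 checked the labels, with a signal of 37.0% of control in both media. This is its probe set used here, and its others gave 23.8% in DMEM and 31.5% in SCM on one, and 23.1% (with the knockdown signal under the floor) and 77.9% on the other. The 5 markers chosen for MDA-MB231 were above the floor on all arrays. Of the 6 luminal markers, CDH1 and PGR were under it on all arrays, KRT19, GATA3 and EPCAM were above it on all and ESR1 on some, and their summed signal was 11012 and 9274 in DMEM and 23606 and 15492 in SCM for control shRNA and PIAS1 shRNA2. Of the endothelial markers VWF, CDH5 and TEK were under the floor on all arrays, but the summed signal of the 4 markers was 485 and 414 in DMEM and 2340 and 3489 in SCM, most of it from PECAM1. For the 5 fibroblast markers the sums were 912 and 628 in DMEM against 1508 and 2321 in SCM, with LUM, PDGFRA and THY1 under the floor on all arrays. For the 4 measured leukocyte markers they were 900 and 624 against 1807 and 1094, with PTPRC and TYROBP under the floor on all arrays and CD14 above it on all. These sums moved in the direction of the matrix genes below, but single markers did not all do so. KRT19 went from 4181 in DMEM to 18700 in SCM in control shRNA cells, and from 3680 to 12434 in PIAS1 shRNA2 cells. GATA3 went down, from 6040 to 3103 and from 4765 to 1718. Most of the fibroblast sums in SCM came from PDGFRB, at 1022 and 1685. As signals are not comparable between genes, each sum mostly follows its brightest probe sets. The part of these markers in the results was not tested. In RNA of whole cultures, more cells of a kind and more RNA per cell cannot be told apart.

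In SCM the control shRNA cells had higher signals for many matrix chains and their receptors than in DMEM. Of the 66 members, 16 were at least 2-fold higher in SCM, or 24.2%, where 7.72% of all genes were. None was at least 2-fold lower, where 8% of all genes were. The median log2 ratio over the members was 0.24, against 0 over all genes, with 25 members under the floor in both media and counted as 0. In PIAS1 shRNA2 cells 17 members were at least 2-fold higher in SCM, or 25.8%, beside 8.02% of all genes, and 1, ITGAE, was at least 2-fold lower, beside 7.79% of all genes. Their median log2 ratio was 0.07, again with 0 over all genes and 22 members counted as 0. These medians depend on the floor, since without it they were 0.60 in control shRNA and 0.59 in PIAS1 shRNA2 cells, against 0.09 and 0.00 over all genes, and with the higher floors they were 0.

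The lines share no array for these 2 ratios, so the lists can be set side by side. They had 15 genes in common, which were 93.8% of the control shRNA list and 88.2% of the PIAS1 shRNA2 list. Over all genes, 655 of those at least 2-fold higher were common to both lines, or 71.0% and 68.2% of the lists. By family, the members at least 2-fold higher were 8 of 32 collagens in either line, 2 of 10 laminins in either line, and 6 integrins in control shRNA and 7 in PIAS1 shRNA2 cells of 24. The 3 families therefore contributed in similar shares, while the chains within each family differed widely.

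**Figure D1:**
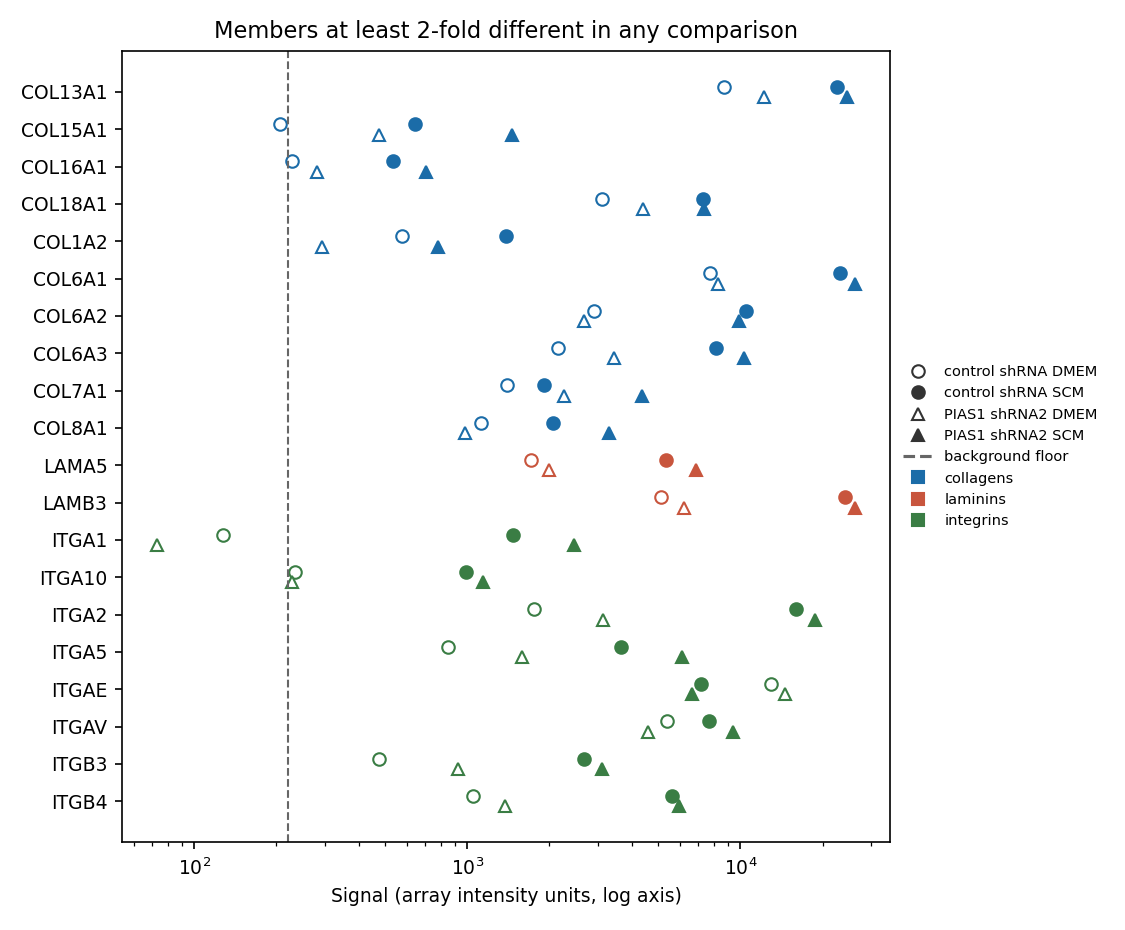
Signals on a log axis of the 20 members at least 2-fold different in any comparison, with 1 point per array. Open symbols are DMEM, filled symbols SCM, circles control shRNA and triangles PIAS1 shRNA2, and the dashed line is the floor of 220. For every gene but ITGAE both filled symbols lie to the right of the open symbol of the same line.

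**Figure D2:**
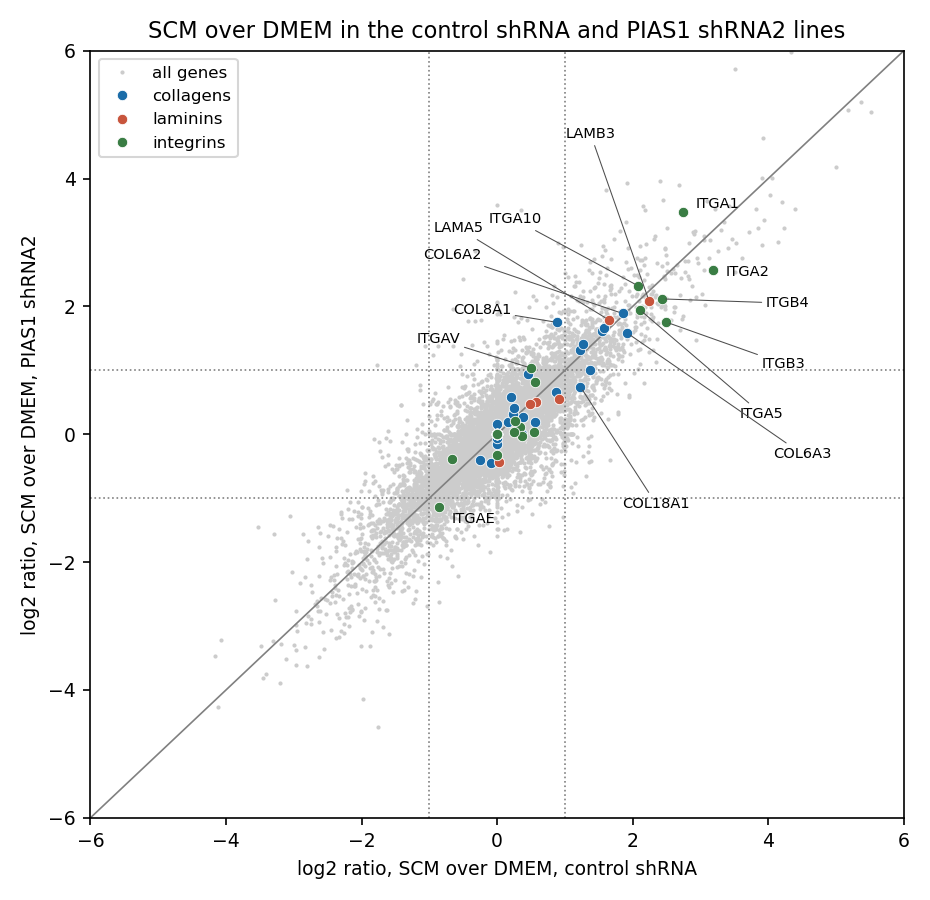
Log2 ratios of SCM over DMEM in control shRNA cells (x) and PIAS1 shRNA2 cells (y), with all 11963 genes in gray and the members in color. Dotted lines mark 2-fold, the solid line marks equal ratios, and 1 gene lies outside the axes. The 15 members in the upper right corner past both dotted lines were higher in both lines, and ITGAE lies at the lower left.

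Among the collagens, all 3 measured chains of collagen VI, the beaded filament collagen that links cells to the surrounding fibrils, were past 2-fold in both lines. The COL6A1 signal was 7737 in DMEM and 23182 in SCM with control shRNA, and 8274 and 26321 with PIAS1 shRNA2. For COL6A2 the signals were 2907 and 10498, then 2675 and 9915. For COL6A3 they were 2152 and 8150, then 3444 and 10318. On all 3 chains, both SCM arrays were thus above both DMEM arrays. The log2 ratios of SCM over DMEM were 1.58, 1.85 and 1.92 in control shRNA cells and 1.67, 1.89 and 1.58 in PIAS1 shRNA2 cells. A second COL6A2 probe set gave 1.86 and 1.90, close to the brightest one. The 5 COL6A1 probe sets with a ratio ranged from 1.07 to 2.36 in control shRNA cells and from 0.94 to 1.72 in PIAS1 shRNA2 cells, where 4 of 5 were past 2-fold. Over all COL6A1 probe sets, those under the floor included, the mean in PIAS1 shRNA2 cells was 0.90.

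COL6A1 and COL6A2 are neighbors on chromosome 21, and COL6A3 is on chromosome 2. RefSeq windows of 250 bases upstream of the start site (GRCh38.p14, 5′ to 3′ on the gene's strand) are shown for COL6A2 and COL6A3. The windows used here include none for COL6A1. The COL6A2 window is chr21:46097862-46098111 on the plus strand and the COL6A3 window chr2:237414165-237414414 on the minus strand. Capitals mark the letters GGGCGG, the core of SP1 sites, and TGANTCA, the letters of AP-1 sites, on either strand. The first was found in 42.6% of 35116 such windows of all genes and the second in 6.57%.
COL6A2: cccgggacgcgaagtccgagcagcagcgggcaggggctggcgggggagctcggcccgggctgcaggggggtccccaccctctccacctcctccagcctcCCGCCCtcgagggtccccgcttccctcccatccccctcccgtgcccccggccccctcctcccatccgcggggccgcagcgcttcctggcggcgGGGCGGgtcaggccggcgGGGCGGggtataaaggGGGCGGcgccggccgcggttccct
COL6A3: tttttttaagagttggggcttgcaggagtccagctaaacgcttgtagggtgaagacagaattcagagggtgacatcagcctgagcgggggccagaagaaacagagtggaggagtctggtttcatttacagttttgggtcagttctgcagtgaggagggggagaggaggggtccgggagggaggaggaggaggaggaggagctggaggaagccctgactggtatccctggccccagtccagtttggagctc
The COL6A2 window holds 4 SP1 matches and the COL6A3 window none of either motif. Both genes were about 3-fold to 4-fold higher in SCM, and a part of these letters in that was not tested. Such matches describe letters only, and binding was not measured.

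The chains COL4A1 and COL4A2 of basement membrane collagen IV, the network former under epithelia, differed little between media. COL4A1 signals were 2897 in DMEM and 4251 in SCM with control shRNA, and 4456 and 5118 with PIAS1 shRNA2. COL4A2 signals were 6685 and 7481, then 9620 and 10952. The log2 ratios of SCM over DMEM were 0.55 and 0.20 for COL4A1 and 0.16 and 0.19 for COL4A2, so none reached 2-fold. For both genes the PIAS1 shRNA2 cells were above the control cells in either medium. These chains are transcribed away from each other from 1 short stretch, shown because both genes share it as their upstream sequence (chr13:110307158-110307283, plus strand, 126 bases, GRCh38.p14, capitals as above).
COL4A1 and COL4A2: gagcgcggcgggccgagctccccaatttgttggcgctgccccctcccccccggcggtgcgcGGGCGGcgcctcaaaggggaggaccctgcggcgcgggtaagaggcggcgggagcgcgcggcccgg
It holds 1 SP1 match and no AP-1 match. With the floor, no collagen IV chain reached 2-fold in any of the 4 comparisons. COL4A4 was under the floor on all arrays, and some ratios of COL4A3 and COL4A6 were lower bounds. COL4A6 was under the floor at 107 in control cells in DMEM. It was 262 in control cells in SCM and 254 with PIAS1 shRNA2 in DMEM. Such bounds cannot show whether these chains differed by 2-fold.

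The fibrillar collagens, the main proteins of connective tissue fibers, were mixed. COL1A2 had signals of 577 in DMEM and 1388 in SCM with control shRNA, and of 294 and 783 with PIAS1 shRNA2, log2 ratios of 1.27 and 1.41. Its partner chain COL1A1 went from 695 to 909 and from 821 to 991, or 0.39 and 0.27. The probe sets of COL1A1 disagreed, since another gave 1.52 in control shRNA cells. COL5A1, which helps to set fibril diameter, was 0.87 and 0.66, with its other probe sets between 0.46 and 0.97. The fibrillar chains COL2A1, COL3A1, COL5A2 and COL11A1 were under the floor on every array.

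COL13A1, a transmembrane collagen of adhesion sites, had signals of 8725 in DMEM and 22569 in SCM for control shRNA and 12228 and 24617 for PIAS1 shRNA2. Its log2 ratios were 1.37 and 1.01, and the latter was under 2-fold with other scalings of the arrays. The multiplexin COL15A1, a proteoglycan of basement membrane zones, was under the floor at 206 in control cells in DMEM and at 643 in SCM, and was 477 and 1464 with PIAS1 shRNA2. This is a log2 ratio of at least 1.55 in control cells and of 1.62 in PIAS1 shRNA2 cells. COL18A1, the other multiplexin and the source of endostatin, was 3104 and 7278 in control cells and 4385 and 7344 in PIAS1 shRNA2 cells. It passed 2-fold in control cells alone, at 1.23 against 0.74, with SCM signals that were nearly equal in both lines, and the difference between the lines was not tested. A second COL18A1 probe set gave 0.54 and 0.52, and the coding gene SLC19A1 overlaps COL18A1 in RefSeq.

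COL16A1, a collagen that decorates fibrils, was close to the floor in DMEM, at 227 and 283, and reached 532 and 705 in SCM. The log2 ratios were 1.23 and 1.32. COL8A1, a network-forming collagen of vessels and cornea, was 1120 in DMEM and 2066 in SCM with control shRNA but 983 and 3309 with PIAS1 shRNA2. It passed 2-fold in the PIAS1 shRNA2 line alone, at 1.75 against 0.88, and the difference was not tested. Of the 32 collagens, 9 were under the floor on all arrays and 7 were above it on some of them.

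**Figure D3:**
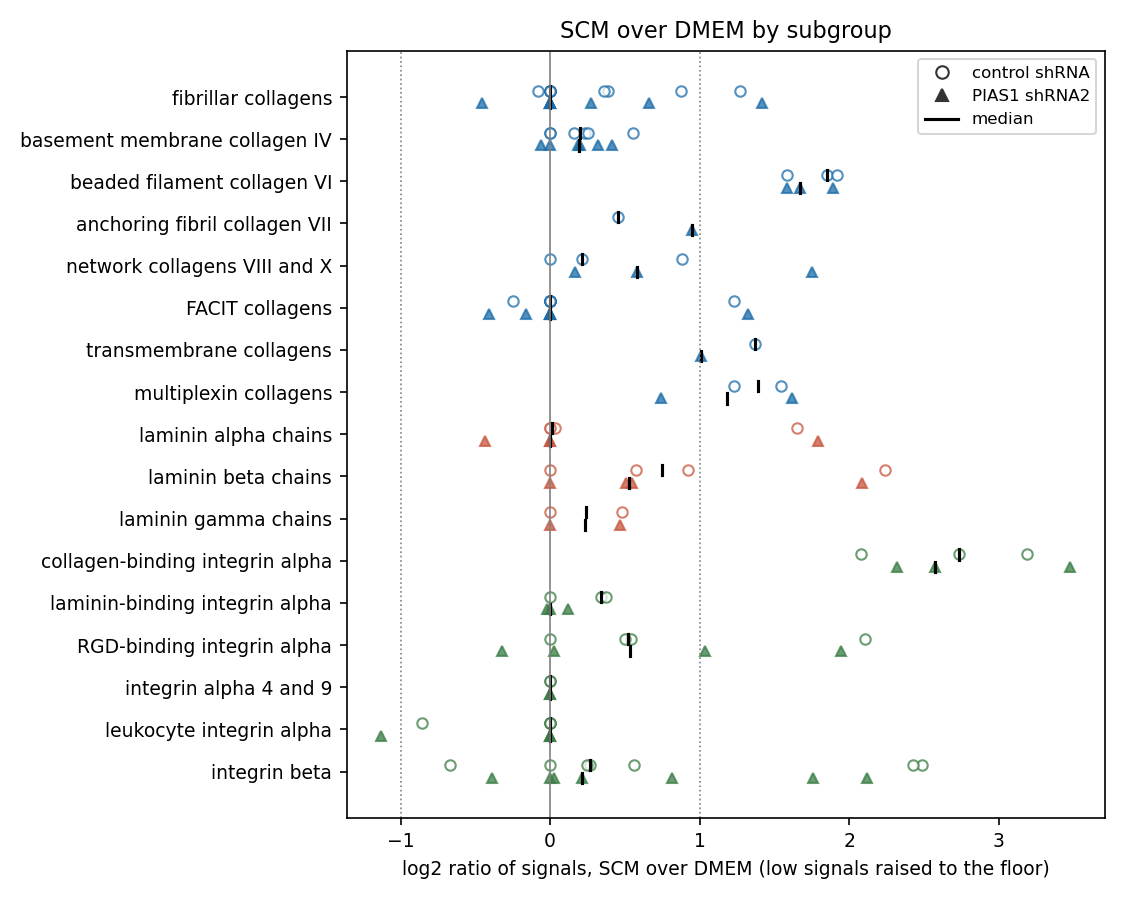
Log2 ratios of SCM over DMEM for each member gene by subgroup, with open circles for control shRNA, filled triangles for PIAS1 shRNA2 and a black bar for the median. Members with both signals under the floor are at 0, and ITGBL1 is not drawn. Collagen VI chains and collagen-binding alpha subunits lie wholly past 1, whereas collagen IV chains and laminin-binding alpha subunits lie under it.

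Of the 10 laminin chains, 2 were past 2-fold between media in both lines. LAMB3, the beta chain of the laminin that anchors epithelia through hemidesmosomes, had signals of 5116 in DMEM and 24201 in SCM with control shRNA, and of 6209 and 26367 with PIAS1 shRNA2. The log2 ratios of 2.24 and 2.09 were the highest of the laminins. Its upstream window at a RefSeq start site is shown because, with COL10A1, it was 1 of 2 member windows among 65 that held an AP-1 match (chr1:209651375-209651624, minus strand, GRCh38.p14, capitals as above).
LAMB3: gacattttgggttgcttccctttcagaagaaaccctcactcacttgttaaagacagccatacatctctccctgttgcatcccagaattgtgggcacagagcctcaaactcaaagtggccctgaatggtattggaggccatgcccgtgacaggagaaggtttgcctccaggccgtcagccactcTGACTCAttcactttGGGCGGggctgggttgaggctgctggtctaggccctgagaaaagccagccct
The window holds the AP-1 letters TGACTCA and, further along, an SP1 match, while the 2 other LAMB3 start windows of the table hold no AP-1 match. SP1 matches were found in 55.4% of the member windows. Of members at least 2-fold higher in both lines, 7 of 11 with a window held an SP1 match, as did 23 of 36 other members.

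LAMA5, the alpha chain of the most widespread basement membrane laminins, was 1704 in DMEM and 5343 in SCM with control shRNA and 1989 and 6875 with PIAS1 shRNA2, log2 ratios of 1.65 and 1.79. Its usual partners moved less. LAMB1 was 2433 and 4603, then 3559 and 5196, or 0.92 and 0.55 on the log2 scale. LAMC1, the gamma chain that most laminins contain, was 9557 and 13341, then 14516 and 20089, or 0.48 and 0.47. The chains of 1 trimer were thus unequal in their ratios in either line. LAMB2, a beta chain of muscle and kidney basement membranes, was 0.58 and 0.51, and LAMA1, LAMA4, LAMB4 and LAMC3 were under the floor on all arrays on the probe set used.

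Integrins held the largest ratios of the 3 families. All 3 measured alpha subunits that bind collagen were past 2-fold in both lines, and each pairs with ITGB1. ITGA11, a further one, is not analysed here. ITGA2, the subunit of the main epithelial collagen receptor, was 1752 in DMEM and 15962 in SCM with control shRNA, a 9.11-fold difference. With PIAS1 shRNA2 it was 3145 and 18710, or 5.95-fold. ITGA1, which prefers basement membrane collagen, was under the floor in DMEM at 128 and 73 and stood at 1467 and 2453 in SCM, so it was at least 6.67-fold higher in control cells and at least 11.2-fold higher in PIAS1 shRNA2 cells. The coding gene PELO lies inside ITGA1 in RefSeq and, on its own probe set, had log2 ratios of 0.49 and 0.35. ITGA10, known from cartilage, went from 234 to 990 and from 229 to 1143, starting close to the floor, with log2 ratios of 2.08 and 2.32.

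For ITGA2, with the largest measured ratio of the members in control cells, the upstream window is chr5:52989102-52989351 on the plus strand (GRCh38.p14, capitals as above).
ITGA2: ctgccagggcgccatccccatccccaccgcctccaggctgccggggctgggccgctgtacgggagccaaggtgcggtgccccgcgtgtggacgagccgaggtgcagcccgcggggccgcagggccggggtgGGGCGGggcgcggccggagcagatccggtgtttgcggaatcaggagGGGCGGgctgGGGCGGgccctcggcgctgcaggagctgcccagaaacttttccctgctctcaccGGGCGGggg
It holds 4 SP1 matches and no AP-1 match.

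The laminin-binding alpha subunits differed little between media, in contrast to the collagen-binding ones. ITGA3 was 15913 in DMEM and 20099 in SCM with control shRNA and 16423 and 17830 with PIAS1 shRNA2, log2 ratios of 0.34 and 0.12. ITGA6 was 9751 and 12619, then 11319 and 11170, or 0.37 and -0.02. The beta subunit ITGB4, which with ITGA6 forms the hemidesmosome receptor for laminin, was at 1048 and 5640 in control cells and 1376 and 5973 in PIAS1 shRNA2 cells. Its log2 ratios were 2.43 and 2.12, and 2 further probe sets lay between 1.66 and 2.27. ITGB4 and LAMB3, receptor and ligand chains of the same anchoring structure, were thus both more than 4-fold higher in SCM in both lines. ITGB4 overlaps GALK1 in RefSeq, whose own log2 ratios were -0.32 and -0.12.

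Among subunits of the receptors for fibronectin and vitronectin, ITGA5 had signals of 849 in DMEM and 3656 in SCM with control shRNA, and of 1591 and 6137 with PIAS1 shRNA2, log2 ratios of 2.11 and 1.95. ITGB3, the beta subunit of the platelet and vitronectin receptors, was 476 and 2671, then 923 and 3122, or 2.49 and 1.76. Its partner ITGAV was higher by less, from 5408 to 7661 at 0.50 and from 4579 to 9382 at 1.03, so it passed 2-fold in PIAS1 shRNA2 cells alone. ITGB5, another partner of ITGAV, was 0.56 and 0.82, but its probe sets ranged from -0.26 to 1.42 in control cells. The ITGB3 probe sets ranged from 0.16 to 1.97 in PIAS1 shRNA2 cells. ITGB1, the partner shared by the most alpha subunits, lay between 39743 and 50124 on the 4 arrays, with log2 ratios of 0.27 and 0.21.

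ITGAE, the alpha subunit by which leukocytes in epithelia bind E-cadherin, ran the other way. Its signals were 12955 in DMEM and 7151 in SCM with control shRNA and 14545 and 6647 with PIAS1 shRNA2. The log2 ratios were -0.86 and -1.13. The coding gene HASPIN lies inside ITGAE in RefSeq and is not analysed here, and P2RX5 also overlaps ITGAE. The other leukocyte alpha subunits, ITGAL, ITGAM and ITGAX, were under the floor on all arrays. Their partner ITGB2 was at 515 and 324 in control cells and at 288 and 157 in PIAS1 shRNA2 cells, with only the last under the floor.

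**Figure D4:**
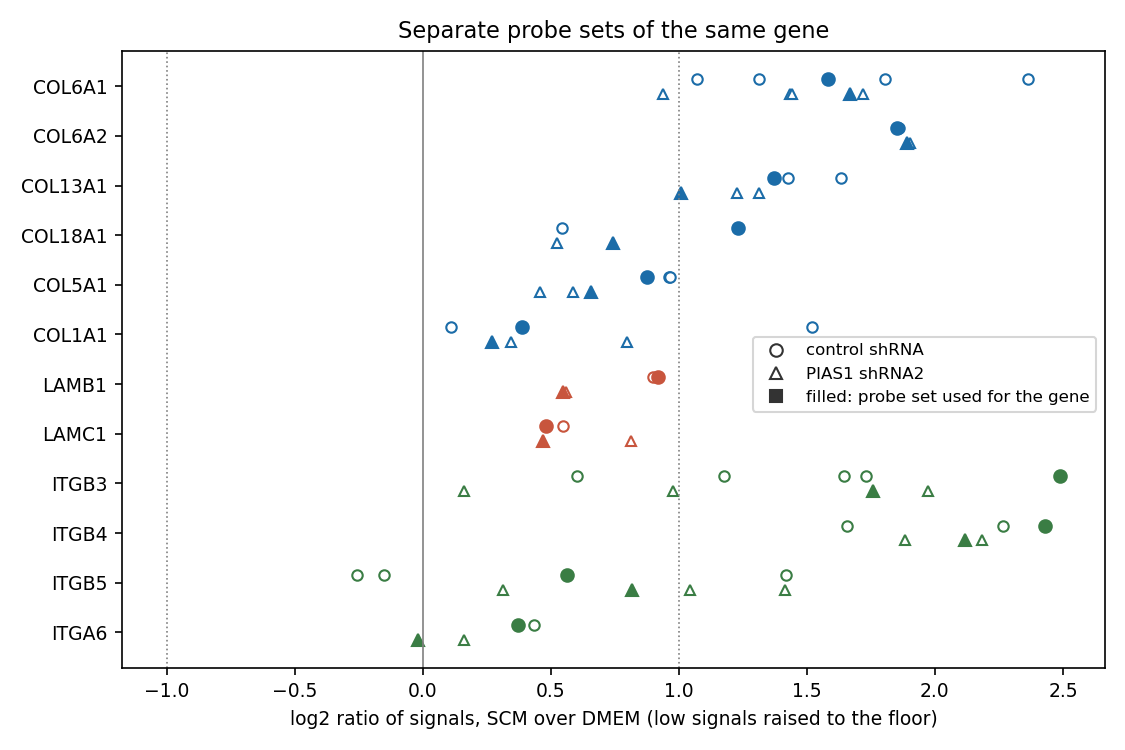
Log2 ratios of SCM over DMEM for separate probe sets of 12 member genes, circles for control shRNA and triangles for PIAS1 shRNA2, filled where the probe set was used for the gene. Probe sets with both signals under the floor are left out. Probe sets of COL6A2 and LAMB1 lie close together, and those of COL1A1, ITGB3 and ITGB5 lie far apart.

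Where at least 2 probe sets of a member gave a ratio, all pointed the same way for 16 of 19 genes in control shRNA cells and for 15 of 16 in PIAS1 shRNA2 cells. The knockdown ratios were smaller and less uniform, with 13 of 17 genes in DMEM and 11 of 17 in SCM.

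PIAS1 shRNA2 and control shRNA cells differed little in these families. In DMEM 1 of 66 members, COL15A1, was at least 2-fold higher with PIAS1 shRNA2, beside 0.878% of all genes, and none was at least 2-fold lower, beside 0.485%. In SCM 2 members, COL15A1 and COL7A1, were at least 2-fold higher, beside 1.5% of all genes, and none was at least 2-fold lower, beside 0.911%. The members' shares of 1.52% in DMEM and 3.03% in SCM rest on 1 and 2 genes. The median log2 ratio over the members was 0 in both media, as it was over all genes, with 27 and 24 members under the floor in both lines and counted as 0. The others had 30 ratios above 0 and 9 below in DMEM, and 29 above and 13 below in SCM. The matching split over all genes is not given, so these counts do not set the members apart from other genes. Without the floor the members' medians were 0.30 in DMEM and 0.15 in SCM, against 0.03 and 0.00 over all genes.

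COL15A1 was higher with PIAS1 shRNA2 in both media, by a log2 ratio of at least 1.12 in DMEM, where the control signal of 206 was under the floor, and of 1.19 in SCM. With the higher floors of 649 and 605 the DMEM ratio was 0, as both signals were then under the floor. COL7A1, the anchoring fibril collagen that ties the epidermal basement membrane to the tissue beneath, had signals of 1396 and 1911 with control shRNA in DMEM and SCM and of 2257 and 4361 with PIAS1 shRNA2. The knockdown log2 ratios were 0.69 in DMEM and 1.19 in SCM, and its other probe set gave 0.50 and 0.80. On the probe sets used and with the floor, COL7A1 and COL15A1 were the sole members past 2-fold between the lines.

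Several members lay under 2-fold on the probe set used, some of them close to it. COL1A2 was lower with PIAS1 shRNA2 in both media, at log2 ratios of -0.97 and -0.83. ITGB3 and ITGA5 were higher in DMEM, at 0.96 and 0.91, and in SCM they were at 0.23 and 0.75. The ITGB3 probe sets ranged from 0.87 to 1.05 in DMEM, so another one passed 2-fold, and from -0.60 to 0.24 in SCM. ITGA2 was 0.84 in DMEM and 0.23 in SCM. COL4A5, a collagen IV chain of kidney basement membranes, was 0.82 and 0.91. LAMC1 was 0.60 and 0.59, but its other probe set gave 0.09 and 0.36. LAMB3 was 0.28 and 0.12. None of these ratios has an error, and no difference between the media was tested.

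**Figure D5:**
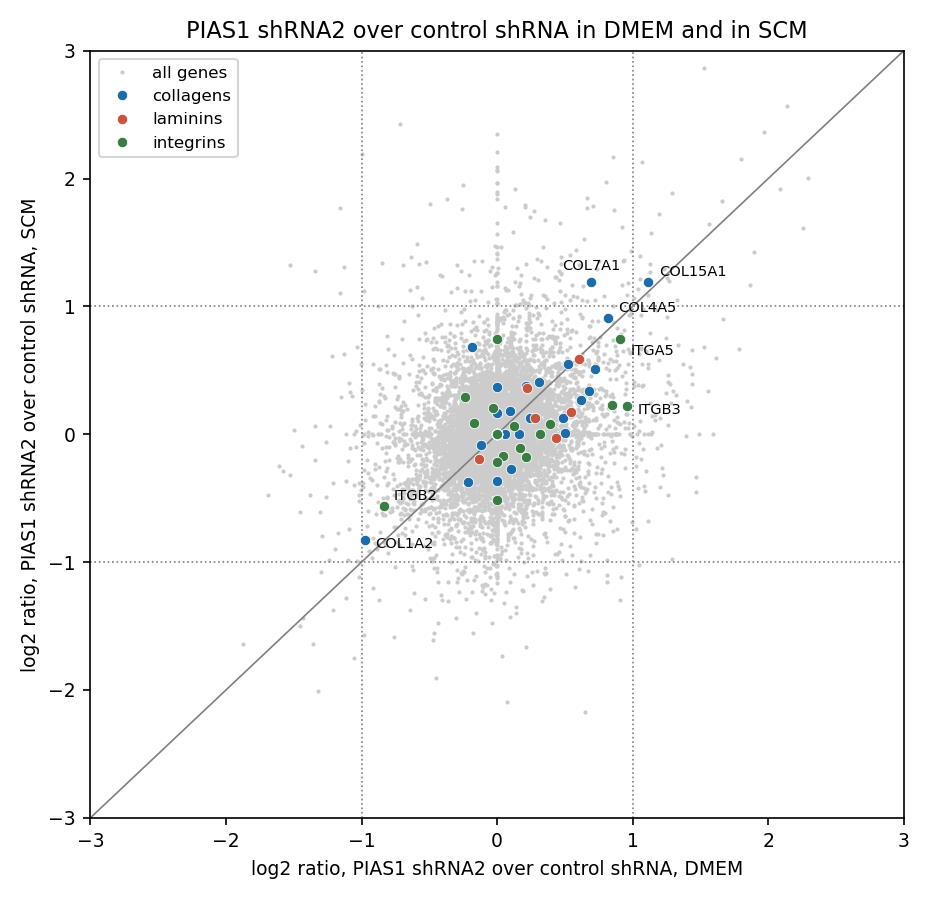
Log2 knockdown ratios, PIAS1 shRNA2 signal divided by control shRNA signal, in DMEM (x) and SCM (y), with all genes in gray and the members in color. Dotted lines mark 2-fold, the solid line marks equal ratios, and 2 genes lie outside the axes. COL15A1 lies past 2-fold in both media and COL7A1 in SCM, with the other members inside.

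Genes that serve these families were read from lists of related function. Of 22 measured genes for collagen synthesis and cross-linking, 7 were at least 2-fold higher in SCM in either line, beside 7.72% and 8.02% of all genes, and none lower, beside 8% and 7.79%, with median log2 ratios of 0.69 and 0.58. LOX, the lysyl oxidase that cross-links collagen, went from 2588 to 45874 in control cells and from 3671 to 29454 in PIAS1 shRNA2 cells, or 17.7-fold and 8.02-fold. The prolyl hydroxylase subunits P4HA1 and P4HA2, which stabilize the triple helix, were at log2 ratios of 2.29 and 1.41 in control cells and 1.83 and 1.96 in PIAS1 shRNA2 cells. PCOLCE2, an enhancer of procollagen processing, was 2.02 and 0.97. In the knockdown comparison PCOLCE2 was the sole gene of this list past 2-fold, at 1.17 in DMEM, where 0.878% of all genes were higher.

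Of 24 other matrix proteins, 3 passed 2-fold upward and 4 downward in SCM in control cells, as did 6 and 4 in PIAS1 shRNA2 cells, beside all-gene shares of 7.72% and 8% in control cells and 8.02% and 7.79% in PIAS1 shRNA2 cells. FN1, fibronectin and the ligand of the ITGA5 receptor, was 2.35 and 1.13, and TNC, tenascin C, was 1.43 and 1.56. The matricellular proteins CCN2 and CCN1, which also bind integrins, were lower, at -1.76 and -1.62 in control cells and -4.58 and -2.75 in PIAS1 shRNA2 cells. With the knockdown in DMEM, 2 of the 24 were at least 2-fold higher, FN1 at 1.56 and TGFBI at 1.28. None was lower, beside all-gene shares of 0.878% higher and 0.485% lower. In SCM 2 were higher, SPARC at no less than 1.19 and TNC at 1.09, beside 1.5% of all genes. There 2 were lower, CCN2 at -2.17 and CCN1 at -1.05, beside 0.911%. FN1 was 0.34 in SCM, and CCN2 was 0.65 in DMEM.

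Of 9 other matrix receptors, 1 was at least 2-fold higher in SCM in each line, BCAM in control cells at 1.07 and SDC4 in PIAS1 shRNA2 cells at 1.21. That is 11.1% in each line, beside 7.72% and 8.02% of all genes. SDC1, a syndecan of epithelial cells, was the sole one at least 2-fold lower, at -1.53 and -1.25, beside 8% and 7.79% of all genes. Of 26 measured cytoplasmic proteins of the integrin adhesion complex, 2 were at least 2-fold higher in SCM in control cells, PTK2B at 1.35 and CIB1 at 1.12. This is a share near the 7.72% over all genes, and the median was -0.05. In PIAS1 shRNA2 cells PTK2B at 1.03 and FERMT1, the kindlin of epithelia, at 1.78 were higher and TLN2, a talin, was lower at -1.57. These shares were 7.69% and 3.85%, beside 8.02% and 7.79% of all genes. FERMT1 was also the sole gene of this list past 2-fold in the knockdown comparison in SCM, at 1.84, where 1.5% of all genes were higher.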

How the data were processed

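RNA of the control shRNA line and the PIAS1 shRNA2 line in DMEM or SCM was measured on 4 Affymetrix arrays, 1 per condition. The authors deposited linear signal intensities, made with MAS5 according to the submitters' processing notes (version and settings: not given in the sources used here). Each array had a mean signal of 2501 without the lowest and highest 2%.

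Gene names came from the table of the array platform. Of 22277 probe sets, 19070 had 1 gene, 1043 several and 2164 were not listed, and these were left out. Entrez IDs of 19058 matched RefSeq (GRCh38.p14), which updated 0 symbols. Where several probe sets read a gene, the one brightest on average (log2) was used. As floor, the 75th percentile over 75 probe sets (54 genes not expected in breast cells) was computed per array and the highest value taken. Ratios have no test, and the number of arrays limits the precision. Alternatives were other floors, scalings and ways to join probe sets. Promoter windows came from RefSeq and were searched on both strands.

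Genes named were all members at least 2-fold different in any comparison, a preset list of laminin, collagen and integrin chains, and up to 4 per list of other genes in each comparison. COL4A3, COL4A5, COL4A6, COL5A1, LAMB2 and ITGB2 were chosen after their values were seen. So were the genes named as under the floor and those inside or overlapping members in RefSeq. Members and lists were chosen with earlier results of these data known. Python 3.11.15, NumPy 2.4.6, pandas 2.3.3 and matplotlib 3.10.9 were used, and the steps were tested on simulated data.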

Additional observations from a re-analysis of the deposited data

How the results depend on the processing

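Without a floor the members at least 2-fold higher in SCM numbered 26 in either line, beside 18.5% and 16.5% of all genes, and those lower 2 in control shRNA and 6 in PIAS1 shRNA2 cells, beside 13.5% and 14.9%. PIAS1 shRNA2 over control shRNA then gave 12 higher and 6 lower in DMEM, beside 10.4% and 7.11%, and 8 higher and 6 lower in SCM, beside 8.46% and 8.53%. Under both higher floors, 0 members were past 2-fold upward in the DMEM knockdown ratio, as COL15A1 no longer was. With a common median 1 was lower there (COL1A2, -1.03), and with the mean of all probe sets 1 was higher in SCM, as COL7A1 came to 0.99. Of the 29 member genes that the rule names, none had a ratio that reversed under the 6 alternatives, and the other genes named were not run. With the higher floors of 649 and 605, COL16A1 and ITGA10 were under 2-fold in SCM over DMEM in both lines. With these floors COL15A1 was so in control cells alone and COL1A2 in PIAS1 shRNA2 cells alone. COL13A1 in PIAS1 shRNA2 cells was 0.98 with a common median and 0.97 with quantile normalization. With the mean of all probe sets, COL18A1 in control cells was 0.89, COL1A2 was 0.63 and 0.71, and in PIAS1 shRNA2 cells COL6A1 was 0.90, COL8A1 0.88 and ITGB3 0.70. Leaving out the floor moved the median of all genes in the control shRNA ratio by 0.09. The cause of these moves, beyond fewer or more low signals counted, was not tested. No paired analysis was possible because the groups compared share fewer than 2 replicate numbers. The signal over background limits what can be said of 21 members under the floor on all arrays.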
